A study of Mus musculus with 6 samples.

Results

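NAD is the electron carrier of fuel oxidation and also the substrate of the sirtuins, enzymes that remove acyl groups from proteins and cleave NAD as they do so. The genes described here make, recycle, dispose of or consume it. They were chosen by name as 9 genes, and probe sets that name a single gene covered 8 of them with 11 probe sets, among 12394 genes and 22690 probe sets on the array. Sirt5, which encodes a mitochondrial desuccinylase, was named by no such probe set and is not analysed here. The rule that lists them uses no measured value, but the list was put together with earlier results of these arrays known.

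Expression was measured on 6 Affymetrix arrays of subcutaneous white fat, labelled IWAT, with 3 arrays per group. Control mice were YY1flox/flox, with both Yy1 alleles floxed, and the other group, YY1bKO, was YY1flox/flox; Ucp1Cre, which adds a Cre transgene under the control of Ucp1 sequences to the same alleles. Yy1 encodes the zinc finger transcription factor YY1. All mice were 8 weeks old, on a mixed C57BL6 and 129 background, and had eaten a high fat diet for 2 weeks. The Cre acts in Ucp1-expressing cells, the brown and beige adipocytes, whereas the tissue measured is a whole white depot, of which such cells are only a part. A group with Cre and unfloxed Yy1 is absent from the labels, so effects of the transgene and of the loss of YY1 cannot be told apart. The labels do not say whether each replicate is a different animal, and p-values here reflect the spread of these 6 samples, which may be technical. In whole tissue, fewer cells of a type and less RNA per cell cannot be told apart either.

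NAD is regenerated in most tissues by a salvage route. NAMPT, which limits its rate, joins nicotinamide to a phosphoribosyl group, and the NMNAT enzymes (NMNAT1 in the nucleus, NMNAT3 in mitochondria) turn the product into NAD. NNMT methylates nicotinamide and so removes it from salvage, and is abundant in white adipocytes. NNT, in the inner mitochondrial membrane, passes electrons from NADH to NADP. SIRT1 works mainly in the nucleus, SIRT2 mainly in the cytosol and SIRT3 in mitochondria.

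Transcripts of 5 of the 8 genes were higher on every YY1bKO array than on every control array. They were the salvage enzymes Nampt (1.56-fold), Nmnat1 (1.77-fold) and Nmnat3 (1.23-fold) and the sirtuins Sirt2 (1.38-fold) and Sirt3 (1.18-fold). Sirt1, Nnmt and the brighter Nnt probe set overlapped between the groups. None of the 8 genes passed an adjusted p of 0.05 over all genes in limma, a linear model test that shares spread across genes, where 4 of 12394 genes (0.0323%) passed, or 1 when any 1 of the YY1bKO arrays was left out. At an unadjusted p under 0.05, 4 of the 8 were higher and 0 were lower, beside 8.45% of all genes higher and 1.99% lower. Those 4 were Nampt, Nmnat1, Sirt2 and Sirt3, without Nmnat3. All YY1bKO arrays lay above all control arrays for 5 of the 8, against 11.5% of all genes. A log2 difference above 0 was found for 7 of the 8, beside 51% of all genes. The median log2 difference (YY1bKO minus control, on the log2(intensity + 1) scale used for every value here) was 0.28 over the 8 genes and 0.00463 over all genes. Without both arrays that stood apart (control replicate 2 and YY1bKO replicate 1, described with the markers) the median of the 8 was 0.16 and that of all genes -0.00679. In that setting 3 of the 8 were higher at an unadjusted p under 0.05 and 5 had groups apart. Groups come apart more easily with fewer arrays, and shares of all genes were not computed there, so these counts have no background. The list was put together with earlier results of these arrays known, so the shares above describe it and test nothing about it.

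The arrays themselves gave median intensities from 123.15 to 130.35. Ucp1, the uncoupling protein of thermogenic adipocytes, was 38.2-fold higher in YY1bKO (limma adjusted p = 1.91e-04), and Yy1 had a log2 difference of -0.24 with a limma adjusted p of 0.574. The sources used here do not say whether the Yy1 probe sets cover the excised exons, so they do not check the labels. Of the fat cell markers searched for, 6 of 8 were measured and 0 lay below the lower quartile on all arrays. Their summed intensity ran from 57142 to 73654 in controls and from 66635 to 72099 in YY1bKO, so the groups overlapped, while that of 7 brown and beige fat markers ran from 1476 to 2996 and from 8981 to 10022. The 2 arrays treated here as standing apart were control replicate 2 and YY1bKO replicate 1. Control replicate 2 had a summed intensity of 10764 for 9 of 9 skin and mammary epithelial markers, where the other arrays had 331 to 525. YY1bKO replicate 1 had 3956 for 7 of 7 skeletal muscle markers. Muscle sums were 428 to 636 in controls and 724 and 1759 in YY1bKO replicates 2 and 3. Every YY1bKO array thus lay above every control array by this sum. By the mean of centred log2 values the groups overlapped, with -0.70 and -0.53 in YY1bKO replicates 2 and 3 and -0.64 to -0.28 in controls. The part of muscle content in the differences of the 8 NAD and sirtuin genes was not tested. Lymphocyte content set arrays apart too. B cell markers (5 of 6 measured, Pax5 below the lower quartile throughout) summed to 224, 2950 and 7779 in control replicates 1 to 3. In YY1bKO replicates 1 to 3 they summed to 195, 3778 and 1370. T cell markers (5 of 6 measured) were also lowest on control replicate 1 (418) and YY1bKO replicate 1 (367). The setting without both arrays that stood apart keeps control replicate 1, so it does not remove this difference in lymphocyte content.

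**Figure D1:**
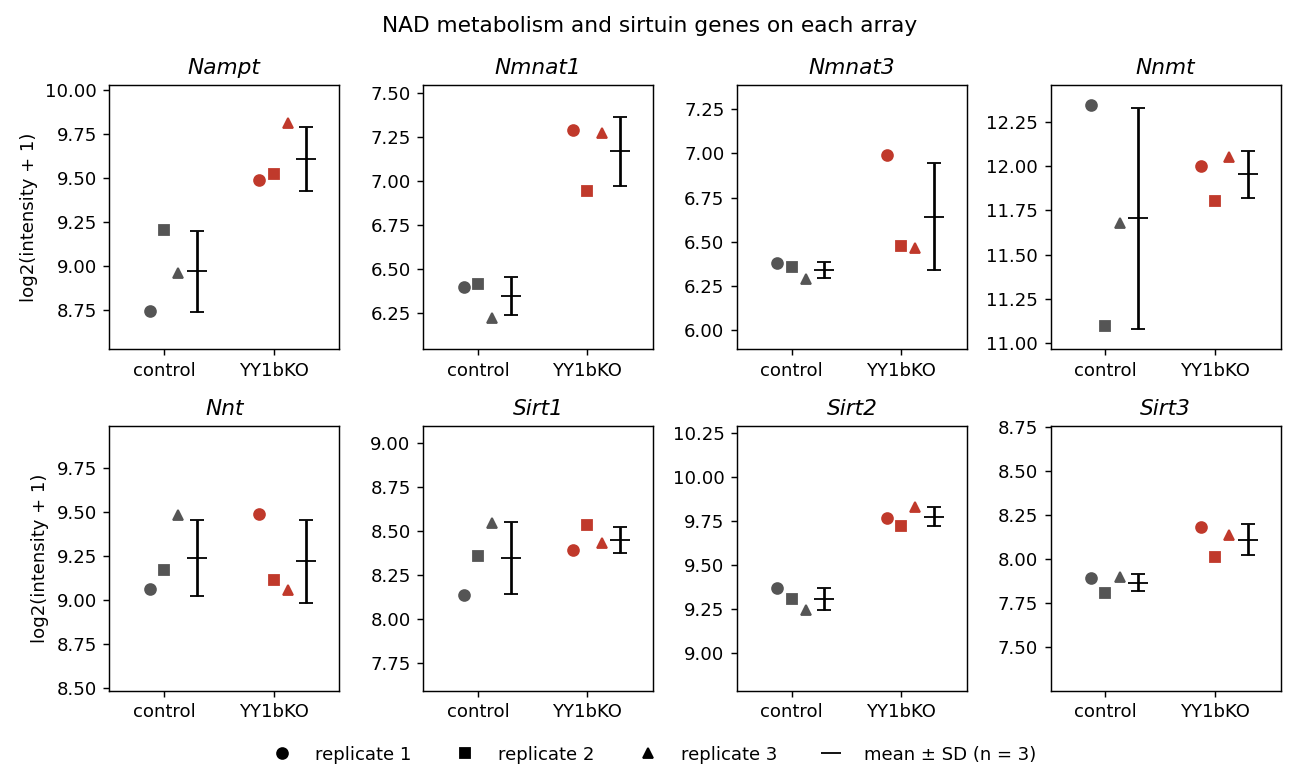
Each panel plots 1 gene, with log2(intensity + 1) on the vertical axis and the 2 groups on the horizontal axis. Points are arrays, their shape gives the replicate number, and the bar beside them is the mean ± SD (n = 3). The groups are apart in the panels of Nampt, Nmnat1, Nmnat3, Sirt2 and Sirt3, and the control values of Nnmt spread from 11.09 to 12.35.

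Because Nampt, Sirt2 and Sirt3 were 3 of the 4 genes with an unadjusted p under 0.05, the RefSeq sequence directly before their annotated starts (assembly GRCm38.p6) is shown. Of the 8 measured genes, 6 had an entry in the RefSeq promoter table. The sequence is cut where the start of a gene on the other strand is reached, which leaves 18 bases before the upstream start of Nmnat1, the fourth such gene, too few to show. Of the 2 annotated starts of Sirt3 the upstream one is shown. Capitals mark matches, on either strand, to a GC box (GGGCGG) or to the YY1 core (GCCATNTT, which reads AANATGGC on the other strand). Of the 32851 promoters in the table, taken as the 250 bases before each start, 32.7% held the GC box and 3.91% the YY1 core. Over the same 250 bases 7 of the 8 promoters of these 6 genes held the GC box, including Sirt2 at 187 bases before its start and the other start of Sirt3 at 69, 47 and 24 bases, all outside the stretches printed. The annotated starts of Nmnat1 lie close together and count the same GC box, 148 and 110 bases before them.
Nampt, chr12:32820085-32820334, + strand: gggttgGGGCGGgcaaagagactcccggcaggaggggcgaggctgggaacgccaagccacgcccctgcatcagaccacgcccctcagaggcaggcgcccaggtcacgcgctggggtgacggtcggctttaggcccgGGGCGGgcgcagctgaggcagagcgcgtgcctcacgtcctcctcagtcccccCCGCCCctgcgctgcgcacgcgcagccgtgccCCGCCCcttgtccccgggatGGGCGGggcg
Sirt2, chr7:28766645-28766751, + strand: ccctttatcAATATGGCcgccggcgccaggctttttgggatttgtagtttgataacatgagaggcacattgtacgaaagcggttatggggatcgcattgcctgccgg
Sirt3, chr7:140882310-140882393, - strand: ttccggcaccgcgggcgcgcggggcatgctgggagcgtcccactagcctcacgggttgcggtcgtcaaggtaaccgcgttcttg

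The stretch before Nampt was 75.6% G and C, where the median of all promoters was 52.4%. The YY1 core before Sirt2 began 98 bases before the start, and Sirt2 was the 1 gene of these 6 with that match. Nfkbib, read on the other strand and described below, starts 108 bases from Sirt2, so the match lies closer to the start of Nfkbib. An E-box (CACGTG, in 6.02% of promoters) was found before Sirt1 alone of the 6, at 115 and 43 bases. A cyclic AMP response element (TGACGTCA) and an estrogen-related receptor site (TNAAGGTCA) had 0 matches in the 8 promoters of these 6 genes, beside 1.55% and 1.14% of all promoters. A match is a run of letters and not evidence that a factor binds there.

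Sirt2, Sirt3 and Nmnat1 each share their start region with a gene read in the opposite direction. The start of Nfkbib, an inhibitor of NF-kappa B, lies 108 bases from that of Sirt2, and the start of Psmd13, a proteasome subunit, 85 bases from the upstream start of Sirt3. Nfkbib had a log2 difference of 0.08 ± 0.14 (SE, n = 3 per group; limma adjusted p = 0.88) and Psmd13 one of -0.11 ± 0.19 (limma adjusted p = 0.879). For both partners the arrays of the 2 groups overlapped, whereas for Sirt2 and Sirt3 they did not. The difference between the partners' differences was not tested. Nmnat1 starts 19 bases from Lzic on the other strand, and Lzic is not analysed here.

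Nampt came first in the salvage route. Its brighter probe set (1417190_at) read 8.75, 9.20 and 8.96 on the control arrays and 9.49, 9.52 and 9.81 in YY1bKO. Every YY1bKO value was above the highest control value, which belonged to control replicate 2. The mean went from 8.97 ± 0.23 to 9.61 ± 0.18 (SD, n = 3 each), a log2 difference of 0.64 ± 0.16 (SE; 95% confidence interval 0.26 to 1.02), and limma gave an adjusted p of 0.274.

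The dimmer Nampt probe set (1448607_at), whose control values of 5.57, 5.41 and 5.58 lay close above the lower quartile of the arrays (4.95 to 5.03), read 6.11, 5.80 and 6.37 in YY1bKO. The groups were apart there too, with a log2 difference of 0.57. YY1bKO replicate 3 was the highest array on both Nampt probe sets. Without control replicate 2 the Nampt difference was 0.75, and without control replicate 1 it was 0.53.

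Nmnat1, the nuclear enzyme of the last salvage step, had the largest difference and the smallest p of the 8. Its brighter probe set (1425773_s_at) read 6.40, 6.42 and 6.22 in controls and 7.29, 6.94 and 7.27 in YY1bKO. The lowest YY1bKO array, replicate 2, lay above every control array by more than the range within either group. The log2 difference was 0.82 ± 0.13 (SE; 95% confidence interval 0.51 to 1.14), at rank 55 of 12394 genes by p, and limma gave an adjusted p of 0.147.

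The dimmer Nmnat1 probe set (1429819_at) gave almost the same difference, 0.83, from control values of 5.56, 5.52 and 5.25 to YY1bKO values of 6.45, 6.14 and 6.25. The agreement of the probe sets does not add samples, since both were read on the same arrays. The 3 genes whose centred values lay nearest to those of Nmnat1 over the 6 arrays, by Euclidean distance, were Fuom (0.143), a fucose mutarotase, Agbl3 (0.169), a cytosolic carboxypeptidase, and Dhrs4 (0.207), a peroxisomal reductase of retinal and other carbonyls. Their log2 differences were 0.84, 0.86 and 0.93, beside 0.82 for Nmnat1, and genes were ranked on the same arrays that gave these values.

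Nmnat3, the mitochondrial form, read 6.38, 6.35 and 6.29 in controls and 6.99, 6.47 and 6.46 in YY1bKO. The groups did not overlap, but YY1bKO replicate 1 was high and the other YY1bKO arrays lay close above the controls. The log2 difference was 0.30 ± 0.16 (SE), with a limma adjusted p of 0.599, and without YY1bKO replicate 1 it was 0.13. That array was the one with the most skeletal muscle transcripts (a mean of the 7 centred markers of 2.74, and from -0.70 to -0.28 on the other 5). By the summed intensity of the same markers the other YY1bKO arrays also lay above every control array. The part of muscle transcripts in the Nmnat3 value was not tested.

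Nnmt was bright and varied widely among controls. It read 12.35, 11.09 and 11.68 in controls and 12.00, 11.81 and 12.06 in YY1bKO, so every YY1bKO array lay between the highest and the lowest control array. The control SD was 0.63 and that of YY1bKO 0.13 (n = 3 each). The log2 difference of 0.25 ± 0.31 (SE; 95% confidence interval -0.50 to 1.00) reached an adjusted p of 0.829 in limma, and the interval holds differences of either sign.

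The lowest Nnmt value belonged to control replicate 2, which also had the lowest mean of centred fat cell markers (-0.33, where the other arrays had -0.21 to 0.22) and the highest of epithelial markers (2.82). Without that array the Nnmt difference was -0.06, and without control replicate 1, the highest control, it was 0.57. The part of cell content in these values was not tested.

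The 2 probe sets of Nnt disagreed. The brighter one (1456573_x_at), whose suffix marks probes that can also match other transcripts, read 9.06, 9.17 and 9.48 in controls and 9.49, 9.11 and 9.05 in YY1bKO. The groups overlapped, with a log2 difference of -0.02 ± 0.17 (SE; limma adjusted p = 0.981).

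The other Nnt probe set (1416105_at) read 8.48, 8.54 and 8.66 in controls and 8.81, 8.80 and 8.79 in YY1bKO, so the groups were apart. Its log2 difference was 0.24 ± 0.09 (SE), with a limma adjusted p of 0.469 over 20393 probe sets, 6 of which (0.0294%) passed. No direction is therefore given for Nnt. The inbred line C57BL/6J is known to carry a deletion within Nnt, and the labels give neither the substrain nor the Nnt genotype of these mice.

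**Figure D2:**
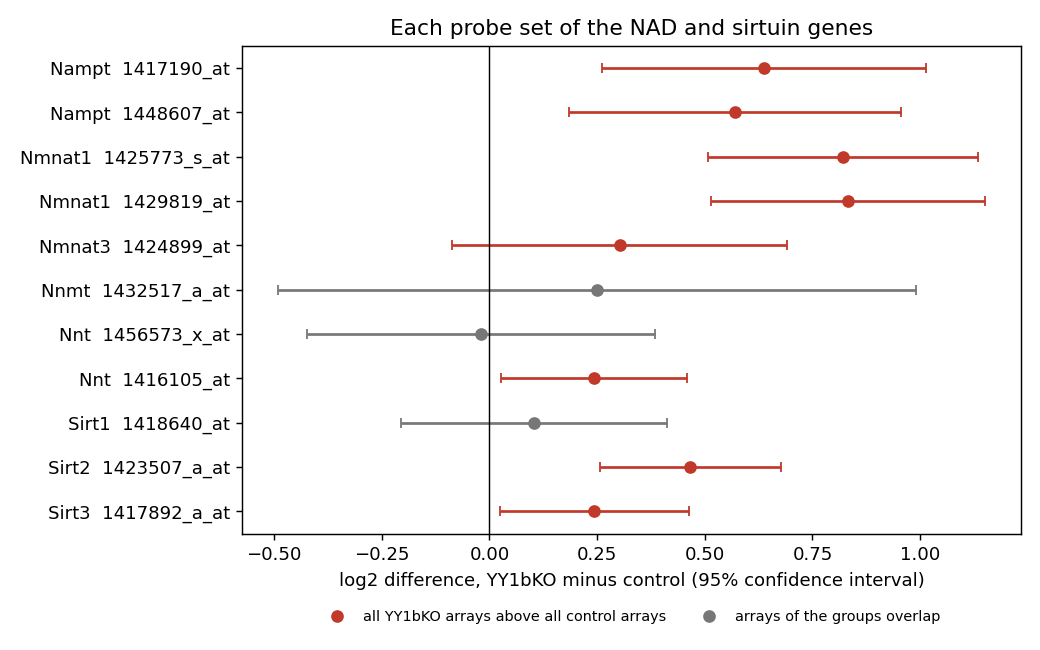
The horizontal axis is the log2 difference, YY1bKO minus control, for each of the 11 probe sets named on the vertical axis, with its 95% confidence interval from limma. Red marks the 8 probe sets whose YY1bKO arrays all lie above all control arrays and grey the 3 that overlap; the intervals of both Nmnat1 probe sets start near 0.51, and the 2 of Nnt centre on -0.02 and 0.24.

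Of the 3 measured sirtuin genes on the member list, Sirt2 had the largest difference. Sirt4, taken from a wider list and described below, had one of much the same size (0.47). Sirt2 read 9.37, 9.31 and 9.24 in controls and 9.77, 9.72 and 9.83 in YY1bKO. The gap between the groups was several times the SD of 0.06 in controls and 0.05 in YY1bKO (n = 3 each). The log2 difference was 0.47 ± 0.09 (SE; 95% confidence interval 0.26 to 0.68), and its adjusted p in limma was 0.174.

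Sirt3, the main mitochondrial deacetylase, read 7.89, 7.81 and 7.90 in controls and 8.18, 8.01 and 8.14 in YY1bKO. The groups were apart by slightly more than the SD of the YY1bKO arrays. Its log2 difference was 0.24 ± 0.09 (SE; 95% confidence interval 0.02 to 0.46), and its adjusted p in limma was 0.437. Without control replicate 2 the Sirt3 difference was 0.21, without YY1bKO replicate 1 it was 0.21, and without both it was 0.18.

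Sirt1 read 8.14, 8.36 and 8.55 in controls and 8.39, 8.53 and 8.43 in YY1bKO. All YY1bKO values fell within the control range, with a log2 difference of 0.10 ± 0.13 (SE; 95% confidence interval -0.21 to 0.41; limma adjusted p = 0.829). Within each group the Sirt1 values ran in the same order as the B cell markers. Centred means of these markers were -1.99, 0.91 and 2.02 in control replicates 1 to 3 and -2.21, 1.20 and 0.07 in YY1bKO replicates 1 to 3. T cell markers ran in that order too. This comparison was not planned before the values were seen, and other genes were not compared in this way. The part of lymphocyte content was not tested. Exact 2-sided permutation tests gave p = 0.1 for Nampt, Nmnat1, Nmnat3, Sirt2 and Sirt3, the smallest that 3 against 3 arrays allow, and 0.5 for Sirt1, 0.6 for Nnmt and 0.8 for Nnt.

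The other genes around NAD were taken from 7 lists with 82 measured members of 104. By limma 0 of the 82 passed an adjusted p of 0.05, while 20 were higher and 0 lower at an unadjusted p under 0.05, beside 8.45% and 1.99% of all genes. The count of 20 became 12 without both arrays that stood apart and 31 without control replicate 1. Shares of all genes in those settings were not computed, so whether the lists or all genes moved cannot be told. The median log2 difference of the 82 was 0.12. The other NAD synthesis genes (12 of 17 measured) split evenly, with 6 higher and 6 lower and a median of 0.02. Slc25a51, the carrier that brings NAD into mitochondria, had a log2 difference of 0.58 (limma adjusted p = 0.244; 3 probe sets from 0.58 to 1.25), with values of 11.72, 11.40 and 11.33 in controls and 12.06, 12.02 and 12.10 in YY1bKO.

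Pnp, the phosphorylase that frees nicotinamide from its riboside, had a difference of 0.35 (limma adjusted p = 0.293), and signal from its near-identical neighbour Pnp2 may not be separable here. Nmrk1, the kinase of nicotinamide riboside, had one of 0.42, with overlapping groups. Kynu, of the route from tryptophan, lay below the lower quartile in controls and had a log2 difference of -0.21.

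Among other NAD consumers (10 of 14 measured) 6 were higher and 4 lower, with a median of 0.01, and 1 of the 10 was higher at an unadjusted p under 0.05, beside 8.45% of all genes. That one was Sirt4, a mitochondrial sirtuin, which read 6.28, 6.52 and 6.48 in controls and 7.06, 6.71 and 6.93 in YY1bKO. Its groups were apart, as those of Sirt3 were, with a log2 difference of 0.47 ± 0.13 (SE; limma adjusted p = 0.307). Art3 (0.37), an ADP-ribosyltransferase relative, Tnks2 (-0.13, with probe sets at -0.13 and 0.04), a tankyrase, and Parp3 (0.27), a DNA damage ADP-ribosyltransferase, overlapped between the groups.

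Nicotinamide methylation and the methyl donor cycle (12 of 16 measured) had 9 higher and 3 lower and a median of 0.05, and 2 of the 12 were higher at an unadjusted p under 0.05, beside 8.45% of all genes. Aox1, the oxidase that converts methylnicotinamide to its pyridones, had a log2 difference of 0.50 (limma adjusted p = 0.453) with overlapping groups. Ahcyl1, a relative of adenosylhomocysteine hydrolase, had one of 0.38 (0.257) with groups apart, and Ahcyl2, its paralog, one of 0.26 with overlap. Mat1a, a methionine adenosyltransferase of liver, lay below the lower quartile in controls.

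NADP and NADPH genes (14 of 19 measured) had 9 higher and 5 lower and a median of 0.13. Idh2, the mitochondrial isocitrate dehydrogenase that makes NADPH and is a known SIRT3 substrate, had a log2 difference of 0.69 (limma adjusted p = 0.201), with YY1bKO arrays at 10.26, 10.16 and 10.19 against controls at 9.79, 9.37 and 9.39. Prdx3, the mitochondrial peroxiredoxin (0.45), Txnrd2, the mitochondrial thioredoxin reductase (0.23), and Glud1, glutamate dehydrogenase (0.29), had groups apart as well. Groups were apart, with YY1bKO higher, for 4 of the 14, beside 11.5% of all genes, and those of Me2 (0.13) and Mthfd2 (-0.11), also mitochondrial enzymes, overlapped.

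NADH shuttle genes (10 of 11 measured) had 6 higher and 4 lower and a median of 0.16, with 3 higher at an unadjusted p under 0.05, beside 8.45% of all genes. The gene farthest from 0 was Slc25a13, the aspartate-glutamate carrier citrin, which read 5.27, 6.51 and 4.95 in controls and 4.60, 4.81 and 4.74 in YY1bKO. Its groups were apart in the lower direction, as for 5% of all genes, with a log2 difference of -0.86 (limma adjusted p = 0.526) and its highest value on control replicate 2. All its YY1bKO values lay below the lower quartile, so the size is not exact. Gpd2, the mitochondrial arm of the glycerophosphate shuttle, had a log2 difference of 0.81 (limma adjusted p = 0.156) and Gpd1, its cytosolic arm, one of 0.83 (0.418) with overlapping groups and 4 probe sets from -0.04 to 0.91. Ldhb, the lactate dehydrogenase subunit of oxidative tissues, had one of 0.65 (0.324), and Mdh2, mitochondrial malate dehydrogenase, one of 0.25.

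Of 14 measured genes for known substrates of the mitochondrial sirtuins, 11 were higher, beside 51% of all genes, and 6 were so at an unadjusted p under 0.05, beside 8.45%, with a median of 0.17. The gene of this list farthest from 0, Ppif, the mitochondrial cyclophilin, was on the other side, at -0.89, with overlapping groups and its highest value, 10.12, on control replicate 2. Ppif, Slc25a13, Me2 and Mthfd2 are named after their values were seen. Those of smallest p were Lonp1, a mitochondrial protease (0.72), Acadvl, very long chain acyl-CoA dehydrogenase (0.87), Ogdh, of the 2-oxoglutarate dehydrogenase complex (0.71), and Sdha, of succinate dehydrogenase (0.33), with limma adjusted p from 0.139 to 0.275. Of 10 measured genes for substrates of Sirt1 or Sirt2, 7 were higher, beside the same 51%, and 4 were so at an unadjusted p under 0.05, beside 8.45% of all genes, with a median of 0.20. Pck1, the glyceroneogenic carboxykinase, had the smallest p of all 82, with 11.54, 11.65 and 11.59 in controls and 12.48, 12.39 and 12.36 in YY1bKO, a difference of 0.82 (limma adjusted p = 0.0598), although its 2 probe sets gave 0.01 and 0.82.

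Nr1h3, the oxysterol receptor LXR alpha (0.62), Ppargc1a, the mitochondrial coactivator PGC-1 alpha (0.92), and Stk11, the kinase upstream of AMPK (0.24, with probe sets at -0.20 and 0.24), followed. These are transcript levels, and neither acylation of the proteins nor NAD itself was measured.

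**Figure D3:**
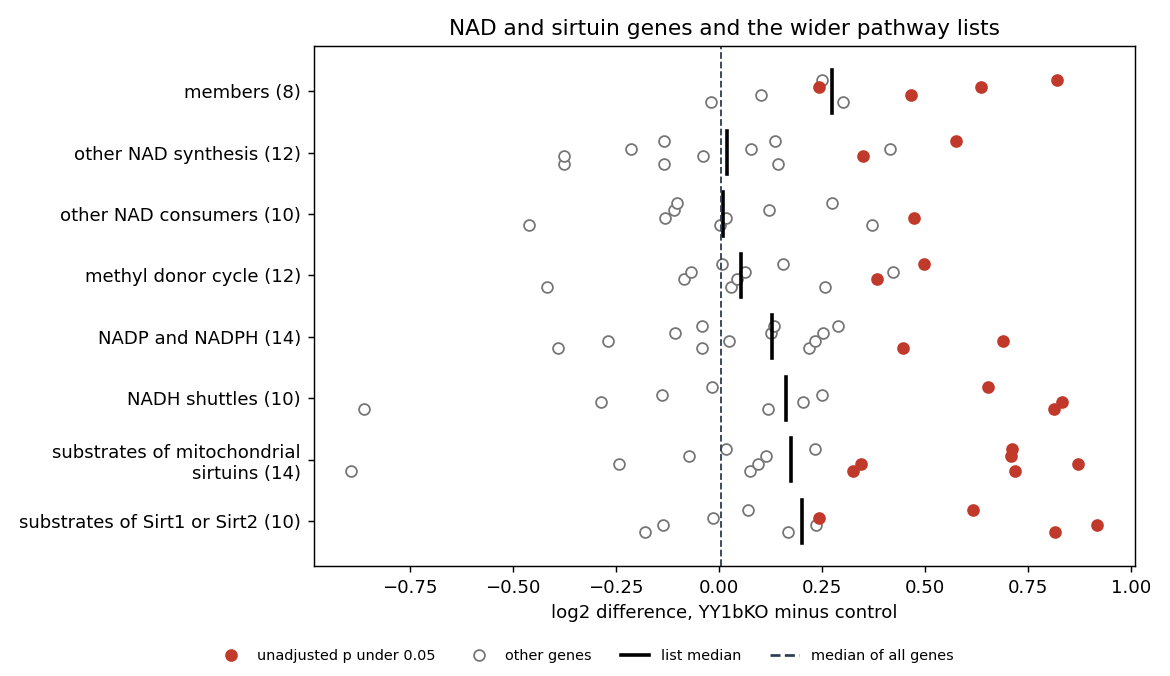
Each point is a gene, placed on the horizontal axis by its log2 difference, YY1bKO minus control, and on the vertical axis by its list, with the number measured in brackets; points are spread vertically only to be seen. Red points have an unadjusted p under 0.05 in limma, black bars are list medians and the dashed line is the median of all genes (0.00463); the medians run from 0.01 for other NAD consumers to 0.28 for the 8 NAD and sirtuin genes.

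Where all YY1bKO arrays lie above all control arrays, leaving arrays out cannot turn the sign, so for those genes only the size is informative. The signs of Nnt, Sirt1 and Nnmt did turn when single arrays were left out. Over 18 other settings, Nampt ranged from 0.53 to 0.81, Nmnat1 (17 settings) from 0.72 to 0.93, Sirt2 from 0.44 to 0.50, Sirt3 from 0.18 to 0.29 and Nmnat3 (17 settings) from 0.13 to 0.39. Nnmt ranged from -0.08 to 0.57, Nnt from -0.19 to 0.11 and Sirt1 from -0.00277 to 0.20. An unadjusted limma p under 0.05 held in 18 of 18 settings for Nampt and Sirt2 and in 17 of 17 for Nmnat1, but in 11 of 18 for Sirt3.

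**Figure D4:**
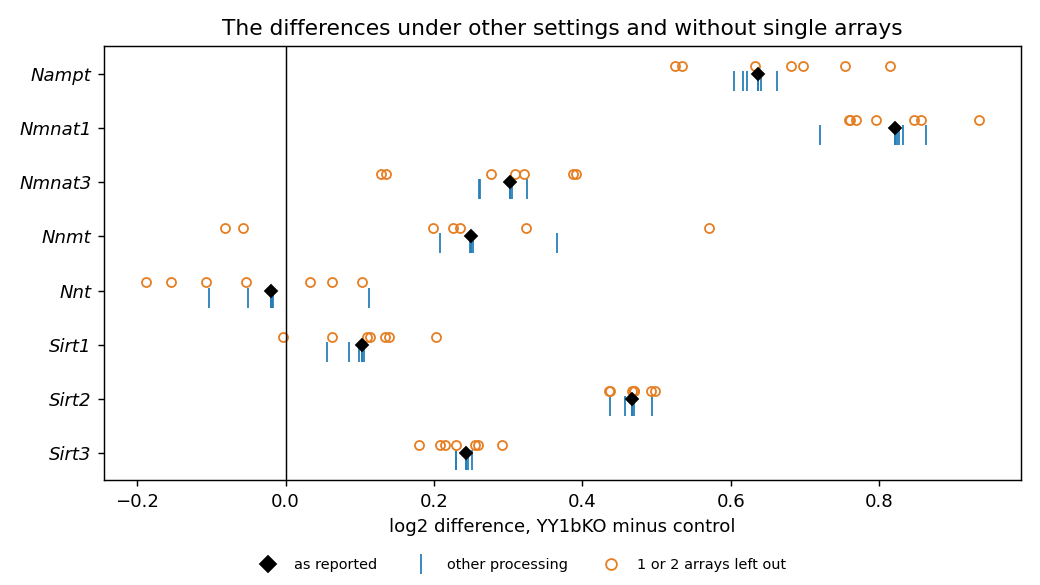
The horizontal axis is the log2 difference, YY1bKO minus control, of each gene on the vertical axis. The black diamond is the value as reported, blue ticks are other processing settings and orange circles leave out 1 or 2 arrays; the circles of Nnmt reach from -0.08 to 0.57, while those of Sirt2 stay between 0.44 and 0.50.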

How the data were processed

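Total RNA of subcutaneous white fat was hybridised to Affymetrix arrays, 3 per group. The authors deposited an intensity for each probe set, made with RMA, per the submitters' processing notes; the sources used here give no version. They were read as linear, since they run from 5.4 to 25730.1. RMA makes array distributions alike and compresses low values, so a shift of total RNA cannot appear. Groups came from the sample titles.

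Values were taken as log2(intensity + 1). Of 22690 probe sets, 20393 named 1 gene in the platform's annotation table. The brightest probe set over all arrays stood for a gene, with no filter, and 12394 genes were fitted in limma 3.58.1 (R 4.3.3; lmFit, eBayes, 2-sided, Benjamini-Hochberg over all genes). That step was tried on simulated data with independent noise and differences larger than those of the members. The trial does not cover differences of the members' size or cell content shared across genes. Named were all members, Yy1 and Ucp1, up to 4 genes of smallest p per wider list and the 3 nearest profiles to the member of smallest p. Members and lists were chosen with earlier results of these data known. The arrays' number limits precision. Other settings covered pseudocount, scaling, filters, probe set choice, variance models, weights, a replicate block and arrays left out.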

Additional observations from a re-analysis of the deposited data

How the results depend on the processing

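In 142 combinations of a gene and a setting, 0 of the 8 NAD and sirtuin genes passed an adjusted limma p of 0.05. The sign turned in 7: Nnt was 0.11 with the mean of its probe sets, 0.10 without control replicate 3, and 0.033 and 0.063 without YY1bKO replicates 2 and 3 (range -0.15 to 0.10 with 1 array left out); Sirt1 was -0.00277 without control replicate 1 (range -0.00277 to 0.20); Nnmt was -0.057 without control replicate 2 (range -0.057 to 0.57). Nnmt was also -0.081 when control replicate 2 and YY1bKO replicate 1 were both left out, a setting added once the data had been seen. The median of the 8 genes ran from 0.22 (without YY1bKO replicate 1) to 0.41 (without control replicate 1) when 1 array was left out, and was 0.16 without both arrays that stood apart. Leaving out genes below the 50th percentile of brightness removed Nmnat1 and Nmnat3 and so left 3 genes with groups apart. With a pseudocount of 16, 1 gene of the wider lists passed, Pck1 (0.81, limma adjusted p = 0.0475). The count of wider list genes higher at an unadjusted p under 0.05 was 12 without both arrays that stood apart and 31 without control replicate 1. The matching shares of all genes were not computed. Over all genes 9 passed with a pseudocount of 16 or with array weights, 12 with the robust fit, 2 above the 50th percentile, and 1 with any 1 of the YY1bKO arrays left out, without both arrays that stood apart or with the replicate block. Deviations from the group means correlated by 0.61, 0.0974 and 0.0307 between arrays of the same number, and 0.61 was the highest of all pairs. Control replicate 3 correlated best with YY1bKO replicate 2 (0.60). These correlations do not tell whether arrays of the same number were paired. With the replicate block 3 of the 8 genes had an unadjusted p under 0.05, in place of 4.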
